A study of Mus musculus with 7 samples.

Results

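Glucose handling was examined through 39 listed genes for sugar transport, glycolysis, gluconeogenesis, fructose phosphorylation and glycogen turnover. Probes were matched to these genes by name alone, as the gene name of a probe in the scanner files or the current symbol of its accession. The list itself was drawn up with earlier results of these data known, so it is no independent support. A probe was found for 38 of the 39, among 27583 genes and unnamed probes on the array, and all 38 were bright enough to test. Pck1, the cytosolic phosphoenolpyruvate carboxykinase, had none under this rule and is not analysed here. The list holds 61 probes, and 16 of its genes have several. The brightest probe over all arrays stands for a gene.

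RNA was hybridised to 7 Agilent arrays, 1 per sample and all from C57BL/6 mice. The groups were fibroblasts (MEF, 3 arrays), prepared individually from embryos at 13.5 days post coitum, induced hepatocyte-like cells made from such fibroblasts (iHep, 3 arrays), and hepatocytes taken from adult livers (1 array). The study is known to have turned fibroblasts into iHep cells with Hnf4a plus Foxa1, Foxa2 or Foxa3. The labels name the iHep arrays 4α1, 4α2 and 4α3, but what the last digit stands for, the number of clones and the animals behind each array are not given in the sources used here. Every type has 1 array, so types were not tested against each other, and the iHep spread is that among types. The arrays MEF 2 and MEF 3 were as alike as repeated spots within an array, so their average was taken as 1 sample, here MEF replicate 2. The sample numbers were thus 2 for MEF, 3 for iHep and 1 for hepatocyte. Whether the spread between them is biological or technical is not known, and p-values measure no more than that spread.

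A level is log2 of the processed signal minus the 75th percentile of its array, so it can be set against the same gene on other arrays but not against another gene. The 75th percentile of signal ran from 608 to 1484, and between 60.2% and 68.7% of probes cleared the background. Hepatocyte markers fixed as a list were above background for 11 of 11 on the hepatocyte array, 6 to 7 on the iHep arrays and 1 on the MEF arrays. Cyp2e1, Cyp7a1, Tdo2 and Hpd were not above background on any iHep array. The hepatocyte array also had 10 of 10 macrophage and Kupffer cell markers, 8 of 8 endothelial and 4 of 5 erythroid markers above background, and their part in its differences was not tested. In bulk RNA, fewer cells of a type and less RNA per cell cannot be told apart.

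Glycolysis splits glucose into pyruvate, and gluconeogenesis runs the reversible steps backward, with its own enzymes at the irreversible ones. Adult liver is known for making and exporting glucose, for storing it as glycogen, and for isoenzymes that answer to blood glucose, whereas cultured fibroblasts use ubiquitous or muscle-type isoenzymes and make lactate. Many steps therefore have a liver form and another form encoded by separate genes.

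Compared with MEF, 8 members were higher and 3 lower in iHep cells, and 27 did not pass the test. The test was limma with Benjamini-Hochberg adjustment over 19135 genes and a threshold of 0.05, and the error after ± is the standard error of the log2 change unless marked SD. Over all genes tested, 10.1% were called higher and 13.2% lower, so 23.3% were called in either direction against 28.9% of the members. The median change of the members was 0.55 on the log2 scale, and that of all genes tested was -0.04. The genes that rose were Pfkp, Aldoc, Pgk1, Fbp2, Khk, Pygl, Pygb and Ugp2, and those that fell were Slc2a3, Pfkfb1 and Eno3.

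In the hepatocyte sample, 19 members were higher and 11 lower than in MEF, and 8 were not called. The background was 28.4% higher, 25.1% lower and 53.5% in either direction, beside 78.9% of the members. Against iHep cells the hepatocyte sample had 16 members higher, 13 lower and 9 not called. There the background was 27.1% higher, 22.1% lower and 49.2% in either direction, beside 76.3% of the members. The members' medians were 0.78 and 0.23, and those of all genes were 0.14 and 0.17. Under quantile normalization the all-gene medians came to -0.00 and -0.02, so hepatocyte changes of that size depend on the scaling. Some members moved by more. Against MEF, Ldha went from 1.14 to 0.094, Tpi1 from 0.42 to -0.38 and Gpi1 from -0.29 to -1.18. Pgam1 went from -0.31 to -1.09 and Pgk1 from -0.04 to -0.92, while Pfkl moved little, from -0.78 to -0.83. The hepatocyte array lay alone on its slide, so slide and cell source cannot be told apart, and its unknown spread was taken to equal that of the others. Both hepatocyte comparisons use the same array, and the 3 comparisons share groups, so they are given side by side and not counted as separate evidence.

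Of the 38 members, 31 were above background on every array. Slc2a2, Pklr and Gys2 entered the test through the hepatocyte array alone, and for such genes a difference from the other groups was built into the filter. Their adjusted p-values for the hepatocyte sample are therefore not given. The counts and shares of members called in the hepatocyte sample include these genes, which is no support for a difference.

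**Figure D1:**
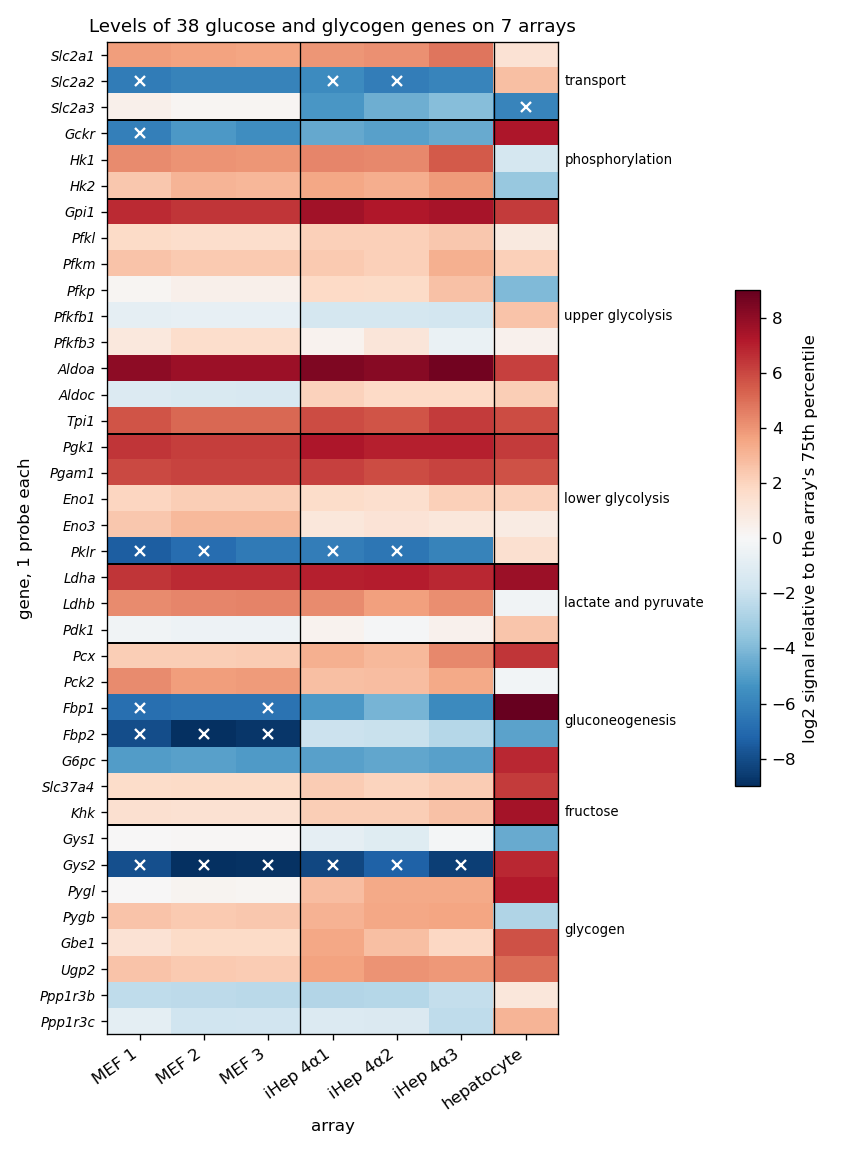
Levels of the 38 members on the 7 arrays, as log2 signal minus the 75th percentile of the array, drawn as a colour scale with 1 row per gene grouped by step and white crosses on probes not well above background. Along their rows, Fbp1, G6pc, Gckr and Gys2 are high on the hepatocyte array and low on the others, while Aldoc, Fbp2 and Pygl separate the iHep arrays from MEF.

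Upstream sequence is shown for examples of some patterns, namely a liver gene that stayed low in iHep cells (here G6pc), genes that rose there and were highest in the hepatocyte sample (Khk, Pygl), and genes that rose there and were lower in the hepatocyte sample (Fbp2, Pgk1). The calls of Khk and Pgk1 in iHep cells were kept in 7 and 6 of 13 alternatives. Each sequence is 250 bases before the start of transcription in the RefSeq annotation of GRCm38.p6, on the gene's strand, and capitals mark every match to the motifs below. The regions are chr11:101367466-101367715 for G6pc, chr5:30921309-30921558 for Khk, chr12:70227684-70227933 for Pygl, chr13:62858401-62858650 for Fbp2 and chrX:106186850-106187099 for Pgk1. Pygl and Fbp2 lie on the minus strand and the others on the plus strand.
G6pc: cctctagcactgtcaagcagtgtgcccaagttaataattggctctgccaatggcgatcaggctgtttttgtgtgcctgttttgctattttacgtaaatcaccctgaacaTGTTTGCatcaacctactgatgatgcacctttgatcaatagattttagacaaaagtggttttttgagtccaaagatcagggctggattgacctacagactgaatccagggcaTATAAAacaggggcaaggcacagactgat
Khk: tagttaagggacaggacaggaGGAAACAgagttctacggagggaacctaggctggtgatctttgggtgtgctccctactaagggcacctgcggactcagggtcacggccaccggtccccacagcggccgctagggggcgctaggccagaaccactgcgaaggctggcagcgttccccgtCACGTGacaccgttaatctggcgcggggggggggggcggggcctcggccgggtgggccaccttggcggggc
Pygl: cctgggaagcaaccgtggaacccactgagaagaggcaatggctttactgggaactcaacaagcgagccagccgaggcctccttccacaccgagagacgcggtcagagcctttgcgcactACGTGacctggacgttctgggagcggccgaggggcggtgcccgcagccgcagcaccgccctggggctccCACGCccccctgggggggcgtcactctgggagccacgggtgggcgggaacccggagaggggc
Fbp2: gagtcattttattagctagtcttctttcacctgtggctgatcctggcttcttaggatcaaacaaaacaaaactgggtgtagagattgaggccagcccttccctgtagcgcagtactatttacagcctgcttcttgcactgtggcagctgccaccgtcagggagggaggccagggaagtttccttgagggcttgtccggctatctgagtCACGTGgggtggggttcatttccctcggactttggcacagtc
Pgk1: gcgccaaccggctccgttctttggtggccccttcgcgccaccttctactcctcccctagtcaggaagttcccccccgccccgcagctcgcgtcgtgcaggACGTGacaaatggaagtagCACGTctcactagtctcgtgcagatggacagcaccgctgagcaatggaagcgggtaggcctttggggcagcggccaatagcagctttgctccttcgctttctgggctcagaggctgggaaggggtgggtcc

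The motifs, searched on both strands, were CAAAGNCCA (HNF4), TGTTTNC (fork head factors), CACGTG (an E-box), ACGTG and GCGTG (cores of hypoxia response elements), TGACGTCA (a cAMP response element) and TATAAA (the TATA box). CACGTG holds ACGTG on both strands. Of the 39 listed genes, 36 had a promoter in the table, Pck1 among them, and Gys2, Slc2a3 and Ppp1r3b had none. A gene was counted if any of its promoters held the motif. The 36 members had 56 promoters and the 27025 genes had 32851. Members thus had more promoters each, which favours a match, and the shares were not corrected for it. CACGTG was found in 7 of the 36, which is 19.4% against 6.86% of all 27025 genes, including Khk and Fbp2, where it starts 71 and 42 bases before the start. ACGTG was found in 15 members, 41.7% against 18.5%, among them Pgk1 at 150 and 131 bases and Pygl at 131. Of the genes that rose in iHep cells, Khk, Fbp2, Pgk1, Pygl, Pygb and Ugp2 held ACGTG, while Aldoc and Pfkp did not. Aldoa, Hk2, Ldha, Pcx, Pfkfb3, Pfkm, Pgam1, Ppp1r3c and Slc2a1 held it too and were not called in iHep cells. The calls of Khk, Pgk1 and Pygb were kept in 7, 6 and 6 of 13 alternatives. Pfkp, which rose, was lower in the hepatocyte sample and lacked ACGTG, is not among the sequences printed. GCGTG was found in 19 members, 52.8% against 30.9%, and TGTTTNC in 7, 19.4% against 19.9%. CAAAGNCCA was in 1 member (1.96% of genes), TGACGTCA in 1 (1.77%) and TATAAA in 4 (14.3%). A match is a run of letters and no evidence of binding, and these shares were not tested.

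Among the sugar transporters, Slc2a3, a high-affinity glucose carrier of neurons and blood cells, showed the largest fall of any member in iHep cells. Its levels were 0.48, 0.16 and 0.19 on MEF 1 to 3, -5.27, -4.38 and -3.85 on iHep 4α1 to 4α3, and -5.96 on the hepatocyte array, where it was not well above background. Every iHep array lay far below every MEF array. It fell by 4.83 ± 0.45 on the log2 scale in iHep cells, 28.4-fold (adjusted p = 0.00346), and was at least 68.0-fold lower in the hepatocyte sample than in MEF (adjusted p = 0.0013). The probe (mm8 chr6:122693676-122693735) carries this alone, since the gene's other probes were not above background on any array. Macrophage and Kupffer cell markers were also lower in iHep cells than in MEF, with 9 of 10 above background on each MEF array and 4 to 5 on the iHep arrays. On the hepatocyte array, where Slc2a3 was not well above background, 10 of 10 of these markers were. Their summed level was 6.12 to 6.78 in MEF, -1.10 to 0.88 in iHep and 4.41 in the hepatocyte sample, and Adgre1, C1qa, C1qc, Clec4f and Cd5l were not above background on any iHep array. Their part in the fall of Slc2a3 was not tested.

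Slc2a1, the ubiquitous glucose carrier, stood at 3.78, 3.60 and 3.54 in MEF, 3.99, 4.12 and 4.81 in iHep cells, and 1.27 in the hepatocyte sample. The iHep arrays were the highest but the change did not pass the test (0.63 ± 0.31, adjusted p = 0.202). It was 5.28-fold lower in the hepatocyte sample than in MEF (-2.40 ± 0.41, adjusted p = 0.00749) and 8.20-fold lower than in iHep cells (-3.04 ± 0.39, adjusted p = 0.00347). Slc2a2, the liver and islet carrier, was at -6.27, -5.98 and -6.02 in MEF, -5.69, -6.23 and -5.91 in iHep cells, and 2.70 in the hepatocyte sample. All MEF and iHep values lay near the lowest level called above background, and the groups overlapped. Its change in iHep cells was 0.19 ± 0.24 (adjusted p = 0.605). Its level in the hepatocyte sample, through which alone it passed the filter, was 456-fold that of MEF (8.83 ± 0.32) and 399-fold that of iHep cells. With values below an array's lowest level above background raised to it, these folds were 379 and 389. Another probe was dim on all MEF and iHep arrays and read 4.85 in the hepatocyte sample.

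Genes of glucose phosphorylation differed most in the hepatocyte sample. Gckr, a liver regulator of this step, was at -6.17, -5.14 and -5.56 in MEF, -4.62, -4.89 and -4.54 in iHep cells, and 7.30 in the hepatocyte sample. The iHep arrays were above all MEF arrays by a small step, 1.08 ± 0.31 (adjusted p = 0.0643), which passed the threshold under quantile normalization, with the authors' value table and with 3 MEF samples. Its level in the hepatocyte sample was 8533-fold that of MEF (adjusted p = 0.000168) and 4036-fold that of iHep cells (adjusted p = 0.000165). Gckr was above background on 2 of 3 MEF arrays. With values below an array's lowest level above background raised to it, the hepatocyte sample was 7336-fold above MEF. The iHep change from MEF was then 1.82-fold, against 2.11-fold as measured.

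Hk1 and Hk2 encode the hexokinases of most non-hepatic cells. Hk1 was at 4.28, 4.03 and 3.97 in MEF, 4.42, 4.30 and 5.54 in iHep cells, and -1.55 in the hepatocyte sample. Hk2 was at 2.41, 3.04 and 2.98, then 3.51, 3.25 and 3.84, and then -3.39. For both genes the iHep arrays lay above the MEF arrays, with type 4α3 the highest, but neither change passed (0.61 ± 0.43, adjusted p = 0.359, and 0.83 ± 0.29, adjusted p = 0.108). Relative to MEF, the hepatocyte sample was 51.6-fold lower for Hk1 (adjusted p = 0.00154) and 68.6-fold lower for Hk2 (adjusted p = 0.000465). Relative to iHep cells it was 78.9-fold and 122-fold lower (adjusted p = 0.00111 and 0.000326). Of the 6 Hk1 probes, 4 showed the hepatocyte level below all the others, and the remaining 2 were at or near background.

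In upper glycolysis, 2 of 9 members rose in iHep cells and 1 fell, which is 33.3% called beside 23.3% of all genes tested. Aldoc, the brain-type aldolase that splits the fructose bisphosphate, rose most, from -1.25, -1.36 and -1.42 in MEF to 2.08, 1.79 and 1.78 in iHep cells, with 2.22 in the hepatocyte sample. The iHep arrays lay close together and far above MEF. The mean was 1.88 ± 0.17 (SD, n = 3) against -1.32 ± 0.10 (SD, n = 2), a 9.21-fold rise (3.20 ± 0.19, adjusted p = 0.00113). The hepatocyte sample was 11.6-fold above MEF (adjusted p = 0.000623), while its difference from iHep cells was 0.34 ± 0.25 (adjusted p = 0.302) and -0.04 with the mean of both probes. The probe lies at mm8 chr11:78142657-78142716, and the gene's other probe was higher in iHep cells by 2.68.

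Pfkp, the platelet-type phosphofructokinase, also rose, from 0.14, 0.46 and 0.42 to 1.79, 1.74 and 2.64, and was at -3.97 in the hepatocyte sample. All iHep arrays exceeded all MEF arrays, by 3.40-fold on average (1.77 ± 0.35, adjusted p = 0.0241), and the other Pfkp probes were higher by 2.07 and 1.32. The call was lost without MEF replicate 1 (1.62, adjusted p = 0.136), MEF replicate 2 (1.92, adjusted p = 0.102) or iHep replicate 1 (1.90, adjusted p = 0.0522). In the adult sample the gene was 19.1-fold below MEF (adjusted p = 0.00186) and 65.0-fold below iHep cells (adjusted p = 0.000695). Pfkfb1, the liver form of the enzyme that makes and breaks the sugar activator of phosphofructokinase, went the other way. Its levels were -0.84, -0.76 and -0.75 in MEF, -1.60, -1.56 and -1.69 in iHep cells, and 2.58 in the hepatocyte sample. Every iHep array was lower than every MEF array, by 1.77-fold (-0.82 ± 0.17, adjusted p = 0.0281), a call lost without either MEF sample, without iHep replicate 1 or 2 and with no filter on dim probes (adjusted p = 0.0638 to 0.135). The hepatocyte array read 10.4-fold above MEF (adjusted p = 0.000512) and 18.4-fold above iHep cells (adjusted p = 0.000297).

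The other upper steps moved less. Gpi1, phosphoglucose isomerase, was at 6.71, 6.43 and 6.42 in MEF, 7.54, 7.19 and 7.39 in iHep cells, and 6.28 in the hepatocyte sample. Its change in iHep cells was 0.80 ± 0.21 (adjusted p = 0.0514). That change passed with 3 MEF samples, quantile normalization, normexp, the authors' value table and the replicate block (adjusted p = 0.00976 to 0.0372), while the gene's dimmer probe changed by -0.15. The hepatocyte sample was 2.14-fold lower than iHep cells (-1.10 ± 0.27, adjusted p = 0.0235), a call that ended with the mean of both probes (0.05), since the dimmer probe went the opposite way, and without iHep replicate 1 (-1.01, adjusted p = 0.0656). Pfkl, the liver phosphofructokinase, stood at 1.75, 1.60 and 1.59, then 2.13, 2.14 and 2.42, and then 0.89. The iHep arrays were the highest and the hepatocyte array the lowest, 2.53-fold below iHep cells (adjusted p = 0.0101), while neither group's difference from MEF passed (0.56 ± 0.19, adjusted p = 0.103 for iHep, and -0.78 ± 0.26, adjusted p = 0.0549 for hepatocyte).

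Aldoa, the ubiquitous aldolase, was at 8.06, 7.71 and 7.69 in MEF, 8.42, 8.19 and 8.68 in iHep cells, and 6.17 in the hepatocyte sample. Its rise in iHep cells did not pass (0.55 ± 0.24, adjusted p = 0.164), and the hepatocyte sample was 3.28-fold below MEF and 4.80-fold below iHep cells (adjusted p = 0.00973 and 0.0039). Pfkm, the muscle phosphofructokinase, was at 2.55, 2.36 and 2.37, then 2.34, 2.13 and 3.16, and then 2.15. The groups overlapped and no comparison was called. Pfkfb3, the inducible relative of Pfkfb1, was at 0.95, 1.58 and 1.56 in MEF, 0.35, 1.12 and -0.62 in iHep cells, and 0.41 in the hepatocyte sample, also without a call. Tpi1, triose phosphate isomerase, likewise did not pass, with changes of 0.48 (adjusted p = 0.278) in iHep cells and 0.42 (adjusted p = 0.387) in the hepatocyte sample relative to MEF.

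In lower glycolysis, Pgk1, phosphoglycerate kinase, rose in iHep cells and Eno3, the muscle enolase, fell. Pgk1 was at 6.41, 6.20 and 6.20 in MEF, 7.27, 6.99 and 7.03 in iHep cells, and 6.27 in the hepatocyte sample. The hepatocyte value lay within the MEF range and all iHep arrays above it, with a 1.73-fold rise (0.79 ± 0.20, adjusted p = 0.0454), and another probe gave 0.75. The call was lost without any 1 of the samples and with no filter on dim probes (adjusted p = 0.0611 to 0.201). The hepatocyte sample was 1.77-fold lower than iHep cells (adjusted p = 0.0433), a call lost when any 1 of the MEF or iHep samples was left out. Eno3 was at 2.40, 2.91 and 2.88 in MEF, 1.04, 1.23 and 1.02 in iHep cells, and 0.73 in the hepatocyte sample. No iHep array reached a MEF array, and the fall was 2.93-fold (-1.55 ± 0.23, adjusted p = 0.0111; -1.30, adjusted p = 0.0623 without MEF replicate 2), with the hepatocyte sample 3.78-fold below MEF (adjusted p = 0.00582).

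In iHep cells 13.2% of all genes tested were called lower than in MEF and 10.1% higher. Of 8 skeletal and cardiac muscle markers tested beside Eno3, 4 fell in iHep cells (Des, Acta1, Actc1 and Tnni1), 3 did not pass and Myh7 was 38.6-fold higher (adjusted p = 0.0182). Their summed level was 6.03 to 6.88 in MEF, 2.97 to 4.17 in iHep cells and 0.36 in the hepatocyte sample. Of all 14 listed, 7 to 12 were above background in MEF and 7 to 9 in iHep cells. Myod1, Myog, Myf5, Myh3 and Ckm were above background on no iHep array, and of these Myf5 and Ckm on no MEF array either. The part of muscle markers in the fall of Eno3 was not tested. Eno1, the ubiquitous enolase, was at 1.96, 2.25 and 2.19, then 1.65, 1.52 and 2.14, and then 2.11, and Pgam1, phosphoglycerate mutase, changed by 0.01 in iHep cells (adjusted p = 0.976). Neither was called in any comparison as fitted. Pgam1 was called lower in the hepatocyte sample under quantile normalization, by -1.09 against MEF (adjusted p = 0.0158) and -1.17 against iHep cells (adjusted p = 0.012), and likewise with the authors' value table. Pklr, the pyruvate kinase of liver and red cells, was at -7.41, -6.82 and -6.37 in MEF, -6.19, -6.47 and -6.01 in iHep cells, and 1.42 in the hepatocyte sample. It was above background on 1 of 3 MEF and 1 of 3 iHep arrays and changed by 0.78 ± 0.32 in iHep cells (adjusted p = 0.143). With values below the detection limit raised to it, the hepatocyte sample was 191-fold above MEF and 171-fold above iHep cells, against 342-fold and 199-fold as measured.

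Genes for lactate and pyruvate differed mainly in the hepatocyte sample. Ldhb, the lactate dehydrogenase subunit of heart, was at 4.27, 4.43 and 4.44 in MEF, 4.26, 3.66 and 4.16 in iHep cells, and -0.35 in the hepatocyte sample. The iHep arrays were slightly lower than MEF (-0.32 ± 0.25, adjusted p = 0.405), and the hepatocyte sample was 26.0-fold below MEF and 20.8-fold below iHep cells (adjusted p = 0.000582 and 0.000694). Ldha, the subunit of muscle and liver, was at 6.42, 6.71 and 6.70, then 6.99, 7.06 and 6.82, and then 7.70. In the adult sample this probe was 2.21-fold above MEF (1.14 ± 0.26, adjusted p = 0.0185), but that call was lost under quantile normalization (0.094, adjusted p = 0.786), with the authors' value table (0.095, adjusted p = 0.783) and without MEF replicate 1 (adjusted p = 0.0704). Against iHep cells the change of 0.75 turned to -0.36 under both scalings. The gene's other probe was at 5.80, 5.61 and 5.62 in MEF, 6.34, 6.47 and 6.14 in iHep cells, and 6.19 in the hepatocyte sample, within the iHep range. Pdk1, a kinase that switches off pyruvate dehydrogenase, was at -0.31, -0.46 and -0.45, then 0.34, -0.14 and 0.41, and then 2.48. Its change in iHep cells was 0.59 ± 0.24 (adjusted p = 0.145), and the hepatocyte sample was 7.27-fold above MEF (adjusted p = 0.00203) and 4.84-fold above iHep cells (adjusted p = 0.0039).

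Of 6 gluconeogenesis members, 5 were higher and 1 lower in the hepatocyte sample than in MEF, where 53.5% of all genes tested were called. Only Fbp2 was called in iHep cells, where 23.3% of all genes tested were. G6pc, the phosphatase subunit that frees glucose for export, was at -5.06, -4.87 and -5.09 in MEF, -4.88, -4.70 and -4.88 in iHep cells, and 6.79 in the hepatocyte sample. The MEF and iHep values lay within a narrow low band and overlapped. The change in iHep cells was 0.20 ± 0.18 (adjusted p = 0.448), and the hepatocyte sample was 3587-fold above MEF (11.81 ± 0.24, adjusted p = 0.000168) and 3113-fold above iHep cells (11.60 ± 0.22, adjusted p = 0.000137). Its probe lies at mm8 chr11:101193723-101193782. Slc37a4, the carrier that brings glucose phosphate to that phosphatase, was at 1.64, 1.73 and 1.72, then 2.26, 2.02 and 2.31, and then 6.31. All iHep arrays were above MEF, though not past the test (0.51 ± 0.19, adjusted p = 0.116), and the hepatocyte sample was 24.8-fold above MEF (adjusted p = 0.000327) and 17.4-fold above iHep cells (adjusted p = 0.000387).

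The fructose bisphosphatases, which undo the phosphofructokinase step, differed between groups. Fbp1, the liver form, was at -6.79, -6.63 and -6.65 in MEF, -5.17, -4.17 and -5.73 in iHep cells, and 8.96 in the hepatocyte sample. Only 1 of the 3 MEF arrays was well above background, and all iHep arrays were, at levels far below the hepatocyte array. The change in iHep cells was 1.69 ± 0.49 (adjusted p = 0.0667). It passed under quantile normalization, with the authors' value table, with 3 MEF samples, with the replicate block and without iHep replicate 3, and was 0.37 with normexp background correction. The hepatocyte array read 16178-fold above iHep cells (adjusted p = 0.000225). Against MEF it was 52181-fold higher as measured (adjusted p = 0.000222) and 36155-fold higher with values below the detection limit raised to it.

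Fbp2, the muscle form, showed the largest rise of any member in iHep cells. Its levels were -8.01, -8.98 and -8.76 in MEF, not above background on any array, -1.96, -1.98 and -2.54 in iHep cells, and -4.81 in the hepatocyte sample. The 3 iHep arrays lay together above all the others. The iHep mean of -2.16 ± 0.33 (SD, n = 3) was at least 17.1-fold above MEF (fitted change 6.28 ± 0.35, adjusted p = 0.000988) and 6.29-fold above the hepatocyte sample (adjusted p = 0.00765). In the hepatocyte sample it was at least 2.72-fold above MEF (adjusted p = 0.00311), a call lost with normexp (0.67, adjusted p = 0.0629). Its probe lies at mm8 chr13:62859115-62863630. The muscle markers are those given with Eno3. Intestinal epithelium markers were higher, with 4 of 10 above background in MEF and 6 to 7 in iHep cells, and a summed level of 1.13 to 1.23 in MEF, 7.36 to 9.43 in iHep cells and 5.11 in the hepatocyte sample. Cdx1 and Muc2 were not above background on any iHep array, and the part of such cells in the Fbp2 rise was not tested.

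Pcx, pyruvate carboxylase, was at 2.19, 2.21 and 2.25 in MEF, 3.23, 2.91 and 4.34 in iHep cells, and 6.43 in the hepatocyte sample. The iHep arrays lay between the other groups and spread widely, with type 4α3 highest, and their change did not pass (1.28 ± 0.46, adjusted p = 0.111). The hepatocyte sample was 18.7-fold above MEF (adjusted p = 0.00452) and 7.68-fold above iHep cells (adjusted p = 0.0129). Pck2, the mitochondrial phosphoenolpyruvate carboxykinase, ran the opposite way at 4.23, 3.78 and 3.80, then 2.74, 2.75 and 3.44, and then -0.23. Its change of -1.04 ± 0.31 in iHep cells did not pass (adjusted p = 0.0732), except with 3 MEF samples (-0.96) and without iHep replicate 3 (-1.27). In the adult sample the gene was 18.9-fold below MEF and 9.21-fold below iHep cells (adjusted p = 0.00138 and 0.00304).

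Khk, ketohexokinase, which phosphorylates fructose, was at 1.41, 1.38 and 1.37 in MEF, 2.18, 2.20 and 2.64 in iHep cells, and 7.47 in the hepatocyte sample. The arrays fell into 3 separate tiers. The rise in iHep cells was 1.92-fold (0.94 ± 0.22, adjusted p = 0.0397), and another probe gave 0.92. That call was lost without either MEF sample, without iHep replicate 1 or 2 and with no filter on dim probes (adjusted p = 0.0724 to 0.167). The hepatocyte array read 67.6-fold above MEF (adjusted p = 0.000272) and 35.1-fold above iHep cells (adjusted p = 0.000342).

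**Figure D2:**
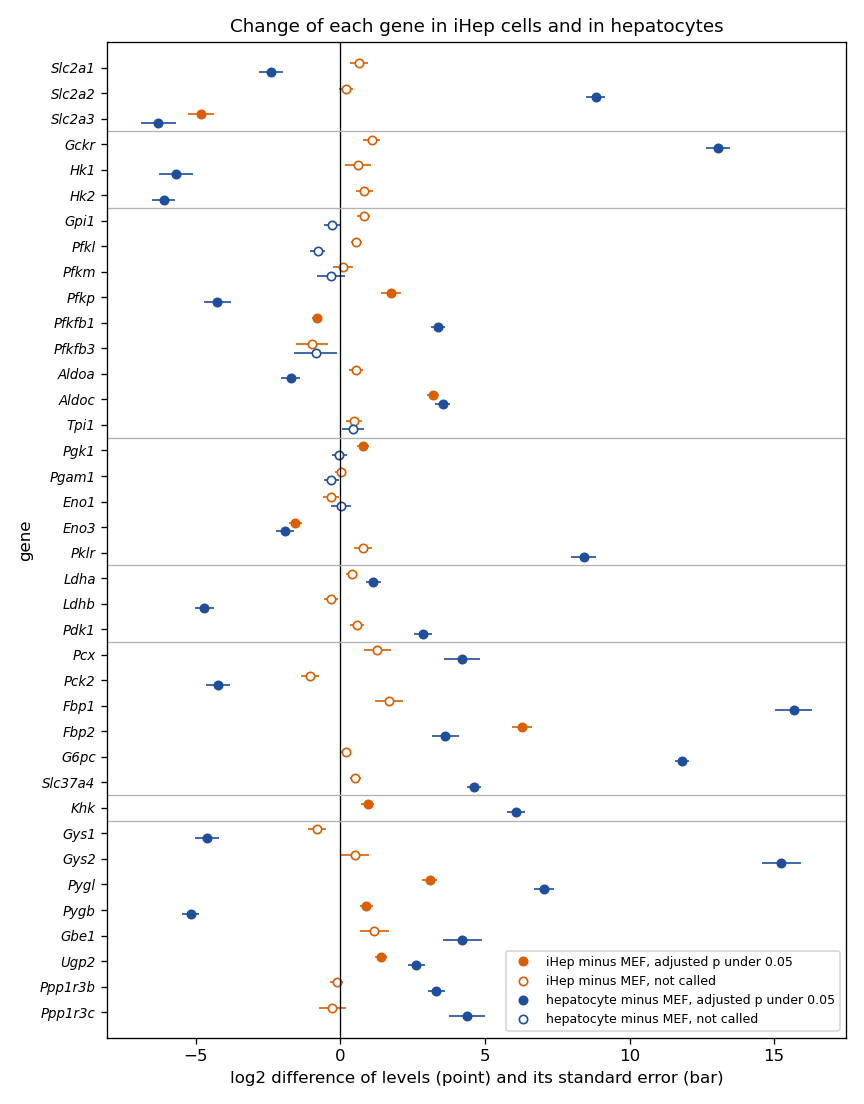
Log2 change of each member in iHep cells and in the hepatocyte sample relative to MEF, with bars of 1 standard error from the limma fit and filled points for adjusted p under 0.05. The called changes in iHep cells run from -4.83 (Slc2a3) to 6.28 (Fbp2), while those in the hepatocyte sample run from -6.29 (Slc2a3) to 15.67 (Fbp1). The values 6.28, -6.29 and 15.67 are as fitted and rest partly on readings below background. Fbp2 was above background on no MEF array and Fbp1 on 1 of 3. Slc2a3 was not above background on the hepatocyte array.

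Among the 8 glycogen genes, 3 rose in iHep cells and 5 did not pass the test, and 6 were higher and 2 lower in the hepatocyte sample than in MEF. The shares of all genes tested called in these comparisons were 23.3% and 53.5%. Pygl, the liver phosphorylase that releases glucose units from glycogen, was at 0.02, 0.22 and 0.19 in MEF, 2.81, 3.41 and 3.41 in iHep cells, and 7.16 in the hepatocyte sample. Each group stood apart. The iHep mean was 3.21 ± 0.35 (SD, n = 3) against 0.11 ± 0.13 (SD, n = 2) in MEF, an 8.55-fold rise (3.10 ± 0.26, adjusted p = 0.00274), and the hepatocyte sample was 132-fold above MEF (adjusted p = 0.000281) and 15.5-fold above iHep cells (adjusted p = 0.00102). Its probe lies at mm8 chr12:71109473-71109532, and another probe was above background on the hepatocyte array alone. Pygb, the brain phosphorylase, was at 2.56, 2.37 and 2.44, then 3.11, 3.48 and 3.57, and then -2.68. It rose 1.87-fold in iHep cells (0.90 ± 0.22, adjusted p = 0.0439), with 0.95 at another probe, a call lost without any 1 of the samples and with no filter on dim probes (adjusted p = 0.0567 to 0.193). The hepatocyte sample was 35.9-fold below MEF and 67.1-fold below iHep cells (adjusted p = 0.000361 and 0.000243).

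Ugp2, which makes the UDP-glucose used for glycogen synthesis, was at 2.55, 2.34 and 2.28 in MEF, 3.60, 4.02 and 3.90 in iHep cells, and 5.06 in the hepatocyte sample. It rose 2.66-fold in iHep cells (1.41 ± 0.22, adjusted p = 0.0128), and another probe gave 1.72. The call was lost without MEF replicate 1 (1.53, adjusted p = 0.0631) or MEF replicate 2 (1.29, adjusted p = 0.0832). In the adult sample the gene was 6.17-fold above MEF (adjusted p = 0.00196) and 2.32-fold above iHep cells (adjusted p = 0.0192), the latter lost under quantile normalization (0.49, adjusted p = 0.215). Gbe1, the branching enzyme, was at 1.27, 1.75 and 1.69, then 3.45, 2.71 and 1.86, and then 5.72. The iHep types spread widely, with 4α1 highest and 4α3 near MEF, and the change did not pass (1.18 ± 0.50, adjusted p = 0.158) unless iHep replicate 3 was left out (1.58). The hepatocyte array read 18.7-fold above MEF (adjusted p = 0.0059) and 8.27-fold above iHep cells (adjusted p = 0.0151).

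The glycogen synthases ran in opposite directions in the hepatocyte sample. Gys1, the muscle form, was at 0.06, 0.13 and 0.11 in MEF, -0.81, -1.12 and -0.19 in iHep cells, and -4.52 in the hepatocyte sample. All iHep arrays were below MEF, though not past the test (-0.80 ± 0.32, adjusted p = 0.137) unless iHep replicate 3 was left out, and the hepatocyte sample was 24.3-fold below MEF and 14.0-fold below iHep cells (adjusted p = 0.00114 and 0.00191). Gys2, the liver form, was at -7.92, -9.13 and -8.89 in MEF and -8.16, -7.27 and -8.45 in iHep cells, not above background on any of these arrays, and at 6.79 in the hepatocyte sample. That is at least 8473-fold above MEF and at least 7352-fold above iHep cells. Its probe lies at mm8 chr6:142379908-142379967.

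Ppp1r3b and Ppp1r3c encode subunits that bring protein phosphatase to glycogen. Ppp1r3b was at -2.30, -2.35 and -2.40 in MEF, -2.62, -2.59 and -2.15 in iHep cells, and 0.98 in the hepatocyte sample. Ppp1r3c was at -0.87, -1.81 and -1.72, then -1.20, -1.28 and -2.31, and then 3.06. For both genes MEF and iHep overlapped and the hepatocyte array stood above them. The changes in iHep cells were -0.12 (adjusted p = 0.736) and -0.28 (adjusted p = 0.708), and the hepatocyte sample was 9.98-fold above MEF for Ppp1r3b (adjusted p = 0.00111) and 20.8-fold above MEF for Ppp1r3c (adjusted p = 0.00427).

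The comparison of isoforms used the difference of 2 log2 levels on an array, of which only the change between groups was read. A pair was available for 12 of 13 pairs, since Pck1 had no probe. An exact permutation test of 2 MEF against 3 iHep samples has 10 arrangements and cannot give a two-sided p below 0.1. In the hepatocyte sample the balance moved towards the liver form, relative to MEF, by 12.21 for Pygl over Pygb, 11.23 for Slc2a2 over Slc2a1 and 3.48 for Pfkl over Pfkp. For Fbp1 over Fbp2, with Fbp2 above background on no MEF array, it moved by 12.05, or 13.70 with values below the detection limit raised to it. Ldhb, the heart form, fell relative to Ldha (-5.84). The balance moved towards the second gene for Ppp1r3b over Ppp1r3c (-1.06) and for Pfkl over Pfkm (-0.47). For Pklr over Pkm the change was 15.48, or 14.64 with values raised to the limit, and Pkm, the pyruvate kinase of most other tissues, was at 4.91, 5.03 and 5.03 in MEF, 5.23, 4.89 and 4.98 in iHep cells, and -2.09 in the hepatocyte sample.

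In iHep cells the pairs did not share 1 direction. Pygl over Pygb was -2.54, -2.15 and -2.25 in MEF, -0.30, -0.07 and -0.16 in iHep cells, and 9.84 in the hepatocyte sample. The iHep arrays lay between the other groups, a change of 2.19 from MEF (exact permutation p = 0.1, the smallest possible), which was 0.73 with the mean of all probes. Fbp1 over Fbp2 was 1.22, 2.35 and 2.11 in MEF, -3.21, -2.19 and -3.20 in iHep cells, and 13.77 in the hepatocyte sample. Here the iHep arrays lay on the far side of MEF from the hepatocyte array, a change of -4.59, or -2.94 with values below the detection limit raised to it (exact permutation p = 0.1). Pfkl over Pfkp also moved away from the hepatocyte value, from 1.60, 1.15 and 1.17 in MEF to 0.35, 0.39 and -0.23 in iHep cells, against 4.86. Pklr over Pkm changed by 0.72 in iHep cells, or 0.10 with values raised to the limit, and Slc2a2 over Slc2a1 by -0.44. The test reached its smallest p for 7 of the 12 pairs, Pklr over Pkm among them. In Slc2a2 over Slc2a3 and Eno1 over Eno3, also among the 7, only the second gene was called in iHep cells. No share expected without a difference was worked out, so the count is not read as a result.

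**Figure D3:**
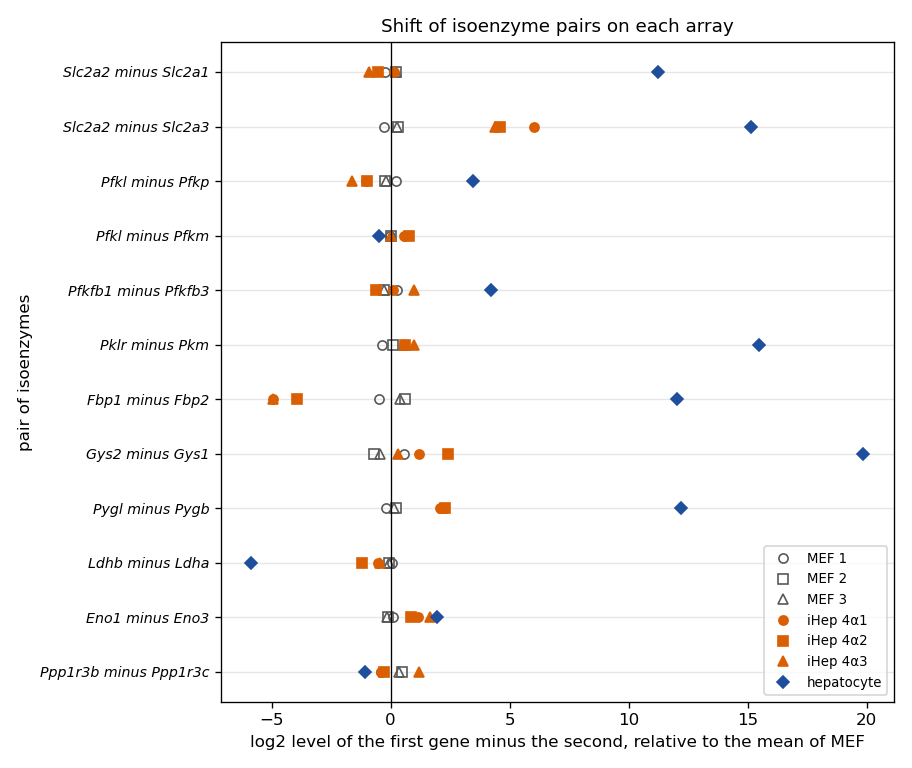
Log2 level of the gene named before minus that of the gene named after, less the MEF mean of that difference, for 12 isoenzyme pairs with 1 point per array. On the hepatocyte array Gys2 over Gys1 moved most, by 19.86, or 17.65 with values raised to the detection limit, while over the iHep arrays Fbp1 over Fbp2 moved by -4.59 on average and Slc2a2 over Slc2a3 by 5.02, the latter with Slc2a2 near background.

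Slc2a3, Aldoc, Fbp2 and Pygl were the 4 members that kept their call and direction in all 13 alternatives run for that comparison, of which 12 differ, since slide 1 alone and leaving out MEF replicate 2 use the same arrays. MEF 1 shared that slide with the 3 iHep arrays. The spread there comes from the iHep arrays alone, and the single MEF array is assumed to vary like them. Within the slide the changes were -4.98 for Slc2a3 (adjusted p = 0.0319), 3.13 for Aldoc (adjusted p = 0.0152), 5.85 for Fbp2 (adjusted p = 0.00904) and 3.19 for Pygl (adjusted p = 0.0268). The other 7 calls kept their direction there but not their threshold, with Pfkp at 1.92 (adjusted p = 0.102), Eno3 at -1.30 (adjusted p = 0.0623), Ugp2 at 1.29 (adjusted p = 0.0832), Khk at 0.93 (adjusted p = 0.167), Pfkfb1 at -0.78 (adjusted p = 0.135), Pygb at 0.82 (adjusted p = 0.193) and Pgk1 at 0.68 (adjusted p = 0.201).

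Genes of the same pathways outside the list were read from lists chosen by function. Of all genes tested, 10.1% were called higher and 13.2% lower in iHep cells than in MEF, 23.3% in either direction. The share called was 18.2% for the other glycolysis, fructose and gluconeogenesis genes, 21.1% for the other glycogen genes and 37.5% for pentose phosphate genes. Of 33 other genes of glycolysis, fructose use and gluconeogenesis, 2 were higher and 4 lower in iHep cells than in MEF. The falls were in Hk3, the hexokinase of blood cells (-4.40 ± 0.56, adjusted p = 0.00749), Slc2a4, the insulin-responsive carrier of muscle and fat (-3.28 ± 0.31, adjusted p = 0.00346), Eno2, the neuronal enolase (-2.33 ± 0.35, adjusted p = 0.0113), and Pgam2, the muscle mutase (3.99-fold, adjusted p = 0.0146). Beside them, 7 of 10 macrophage and Kupffer cell markers and 4 of 8 muscle markers fell, and Myh7 rose. Of 19 other glycogen genes tested, 4 were lower and 15 did not pass the test. The falls were in Ppp1r3d, a further phosphatase subunit (-4.43 ± 0.56, adjusted p = 0.00743), Gaa, the lysosomal glucosidase (-1.80 ± 0.21, adjusted p = 0.00616), Gyg, the primer of glycogen synthesis (-1.25 ± 0.20, adjusted p = 0.0134), and Ppp1r3f (-1.03 ± 0.20, adjusted p = 0.0235). Pentose phosphate genes had 3 of 8 higher, which were H6pd (1.68 ± 0.25, adjusted p = 0.0115), G6pdx (1.17 ± 0.29, adjusted p = 0.0448) and Pgd (1.16 ± 0.25, adjusted p = 0.0305).

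For the remaining lists, the share called was 33.3% for lactate transport and pyruvate dehydrogenase genes, 33.3% for regulators and 26.7% for hypoxia response genes. Of all genes tested it was 23.3%. Among 15 genes of lactate transport and pyruvate dehydrogenase, 3 were higher and 2 lower in iHep cells. Pdk4, a starvation-induced kinase of that complex, was at -0.76, -0.79 and -0.81 in MEF, 4.93, 4.59 and 3.25 in iHep cells, and -1.11 in the hepatocyte sample. All iHep arrays stood above the rest, 32.8-fold over MEF (5.04 ± 0.54, adjusted p = 0.00492). Ldhd, the D-lactate dehydrogenase, rose by 3.57 ± 0.45 (adjusted p = 0.00743) and Slc16a1, a lactate carrier, by 1.89 ± 0.30 (adjusted p = 0.0143), while the carrier Slc16a7 was at least 11.4-fold lower (adjusted p = 0.00272). Among 27 regulators of glucose genes, 9 were higher and 18 did not pass, and the 4 with the largest change were Hnf4a, Mlxipl, Epas1 and Ppargc1a. Hnf4a was at least 53.2-fold higher (adjusted p = 0.0139), and its probe was not tested for whether it reads the added factor or the cell's own gene. Mlxipl, the glucose-responsive factor ChREBP, rose by 5.13 ± 1.30 (adjusted p = 0.0476), Epas1, the hypoxia factor of the HIF family, by 5.06 ± 0.69 (adjusted p = 0.00925), and Ppargc1a, a coactivator of gluconeogenic genes, by 4.83 ± 0.58 (adjusted p = 0.0066). Of 15 hypoxia response genes outside glycolysis, 2 were higher and 2 lower, with Egln3 at 3.69 ± 0.45 (adjusted p = 0.00662), Higd1a at 1.38 ± 0.30 (adjusted p = 0.0327), Car12 at -1.52 ± 0.24 (adjusted p = 0.013) and P4ha1 at -1.07 ± 0.18 (adjusted p = 0.0169).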

How the data were processed

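Scans were turned into values by Agilent Feature Extraction 9.5.1.1, per the file headers. The processed signal is an intensity that was deposited without scaling between arrays. Mean and local background signals, also intensity values per the file headers, served 1 alternative. Flags of a spot, a unit other than a measurement, were deposited as 0 or 1. The authors also deposited a table of 1 intensity per probe and array, with column medians of 66.3 to 66.4 and r = 0.9988 to 0.9999 with the scanner values of the same array. Its scaling is unstated, and it served as an alternative.

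Spots marked as outliers (66 to 104 per array) were dropped and repeated spots averaged, which left 41138 of 41174 probes. Names came by accession (24375 probes), symbol (6301), synonym (2426) or the file (7811), with RefSeq names of GRCm38.p6. Positions are those of the array's mm8 annotation, and exon or UTR annotation was not used here. Testing required a probe to be flagged above background on all arrays of 1 or more groups (19135 genes).

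The spread between MEF 2 and MEF 3 was 0.495 to 0.925 times that of repeated spots, and that of MEF 1 against MEF 2 was 3.12 to 4.51 times. All 3 groups entered 1 fit with limma 3.58.1 in R 4.3.3. The fit was tested on simulated data. A fold is "at least N-fold" where a probe was above background on no array of the dimmer group, and is then taken against the lowest level above background on those arrays or the probe's own, whichever is higher. The number of arrays limits the precision.

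Members and lists were chosen with earlier results of these data known, so neither counts as independent support. Every listed gene with a probe is named, with its values on every array where it was called or belongs to an isoform pair. Of each other pathway list, up to 4 genes called in iHep cells with the largest change are named. A few genes of these lists and their isoform pairs, and 1 promoter motif, are not reported here. Alternatives changed the MEF samples counted, scaling, background, value table, filter, probe choice, slide, block and single samples. Raising pair levels, and levels of partly detected members, to the detection limit and reading each probe on its own were added after seeing the data.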

Additional observations from a re-analysis of the deposited data

How the results depend on the processing

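Precision rests on few arrays, and dim probes give bounds at most. Of the 11 calls in iHep cells against MEF, 11 were kept with 3 MEF samples, quantile normalization, normexp, the authors' value table, the mean of all probes and the replicate block, 7 with no filter, 4 on slide 1 alone (the arrays left without MEF replicate 2) and 4 to 9 when 1 sample was left out. Of the 30 hepatocyte calls against MEF 29 to 30 were kept, and of the 29 against iHep cells 27 to 29. Same-numbered MEF and iHep arrays did not deviate together (r = 0.03, -0.02 and -0.00). This cannot exclude a pairing, since MEF 2 and MEF 3 were nearly alike and the iHep arrays are of different types. With the replicate block 2367 genes were higher and 3082 lower.

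For iHep against MEF, 1924 genes were higher and 2535 lower. Counting 3 MEF samples gave 3158 and 4149, with 16 members higher, slide 1 alone gave 752 and 917, with 3 members higher and 1 lower, and no filter gave 5 members higher. Leaving out 1 sample gave 684 to 2093 genes higher and 917 to 2555 lower, with 3 to 8 members higher and 1 to 5 lower. For hepatocyte against MEF the split of 5430 higher and 4803 lower became 4946 and 5329 under quantile normalization and 4930 and 5311 with the authors' value table. Against iHep cells 5189 and 4232 became 4432 and 4920, and 4409 and 4920.

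Not every change that turned direction was small. In hepatocyte against iHep cells, Slc2a3 was -1.46, Gpi1 -1.10 and Ldha 0.75 as fitted, and Pklr was 0.78 in iHep cells against MEF. The changes that turned were mostly not called, and the cause was not tested. In iHep against MEF they were Pgam1 (-0.019 with 3 MEF samples and with the replicate block), Gys2 (-0.040 with normexp, -0.042 on slide 1 alone), Pklr (-0.023) and Slc2a2 (-0.047) with normexp, and Pfkm (-0.0022 on slide 1 alone). In hepatocyte against MEF they were Eno1 (-0.029 with 3 MEF samples, -0.15 under quantile normalization, -0.14 with the authors' value table), Tpi1 (-0.38 under both scalings) and Gpi1 (0.37 with the mean of all probes). In hepatocyte against iHep cells they were Ldha (-0.36 under both scalings), and Aldoc (-0.037), Slc2a3 (0.0035) and the called Gpi1 (0.047) with the mean of all probes. Pklr over Pkm was -0.055 with normexp. Leaving out 1 sample, changes in iHep cells ran from -0.076 to 0.10 for Pgam1, -0.042 to 1.05 for Gys2, -0.22 to 0.30 for Pfkm and -0.73 to 0.17 for Ppp1r3c, those of hepatocyte against MEF from -0.12 to 0.14 for Eno1 and -0.14 to 0.067 for Pgk1, and those of hepatocyte against iHep from -0.33 to 0.55 for Pfkfb3 and -0.19 to 0.12 for Tpi1. Quantile normalization and the authors' value table also called Gpi1, Pfkl, Pgam1 and Pgk1 lower in the hepatocyte sample than in MEF, and Pgam1 lower than in iHep cells. Calls gained with 3 MEF samples in iHep cells were Aldoa, Fbp1, Gckr, Gpi1, Pck2, Pcx, Pdk1, Pfkl and Slc37a4.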
